A study of Mus musculus with 6 samples.

Results

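Red blood cell genes were followed in RNA from mouse fetal gonads through 8 genes: the embryonic globins Hba-x, Hbb-y and Hbb-bh1, and Alas2, Slc4a1, Klf1, Epb42 (older symbol Epb4.2) and Tfrc. They were chosen by name, each read at the probe set annotated to it alone. Each had exactly 1 such probe set, so the 8 genes took 8 of the 21640 single-gene probe sets, which cover 19937 genes. The RNA came from gonads dissected without the mesonephros at E13.5, in midgestation, in pools, with 1 Affymetrix mouse gene array per pool and 300 ng of total RNA each. The Sox9 mutant group held 3 arrays, numbered 3, 4 and 6 in the labels, each a pool of 12 gonads of genotype Sox9flox/flox; Sf1:creTr/+, in which a Cre transgene named for Sf1, a gene of gonadal somatic cells, acts on floxed Sox9. The wild-type group held 3 arrays, numbered 1, 2 and 5, each a pool of 6 gonads. Both groups were on a mixed background of C57BL6/J and 129. No group carried only the Cre or only the floxed alleles, pool size went with genotype, and the labels give no embryo sex, litter or batch. The labels do not say whether the pools stem from different litters, so p-values measure the spread between these pools, which may be partly technical.

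The first red cells of the mouse embryo arise in the yolk sac, enter the circulation with their nuclei and carry embryonic globin chains. Later red cells come from the fetal liver and use the adult alpha and beta chains, and at midgestation both generations circulate together. Blood in the vessels of a dissected organ therefore adds globin, heme synthesis and red cell membrane transcripts to its RNA. In such bulk RNA, fewer red cells and less RNA per red cell cannot be told apart.

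Values are log2 signals after RMA, the authors' background correction, quantile normalization and probe summary, and signals of different probe sets are not comparable with each other. As a mark of background, 6.67 log2 was used, the level under which 95% of 1204 probe sets for odorant and pheromone receptors had their mean. Sox9, the targeted gene, measured 7.52, 7.78 and 7.60 log2 on mutant arrays 3, 4 and 6, against 8.82, 8.81 and 9.20 on wild-type arrays 1, 2 and 5 (difference -1.31 ± 0.14, SE, limma adjusted p = 0.00124). Whether its probes lie in the floxed stretch is not given in the labels. The germ cell marker Ddx4, chosen after its values were seen, averaged 11.09 ± 0.03 log2 in the mutant and 10.91 ± 0.04 in wild type (SD, n = 3 each), above the mark on each array. Germ cell genes did not all move alike. Dazl, chosen likewise, averaged 11.66 ± 0.03 and 11.35 ± 0.15, and Pou5f1, also chosen so, 10.25 ± 0.39 and 10.83 ± 0.16. The groups overlapped in neither (limma adjusted p = 0.184 and 0.129). The Sertoli cell hormone gene Amh fell, at 5.91, 8.91 and 5.89 log2 on mutants 3, 4 and 6, below the mark on all but mutant 4, against 11.41, 11.09 and 11.20 on wild types 1, 2 and 5 (limma adjusted p = 0.00654). Star, of steroid-making cells, averaged 7.53 ± 0.87 and 10.87 ± 0.13, and Fst, of the fetal ovary, 10.63 ± 0.29 and 7.01 ± 0.27 (limma adjusted p = 0.00107 and 0.000188). Wild-type array 5 stood apart in liver genes, as described below with the red cell genes. Correlations over all probe sets were 0.984 to 0.992 within groups and 0.969 to 0.985 between them.

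The proximal promoters of 4 of the genes are shown because GATA1 and KLF1, the main activators of the red cell programme, read the kinds of letters marked in them. Each is the 150 bases before the RefSeq start (GRCm38.p6), 5′ to 3′ on the gene's strand. Capitals mark the GATA factor motif, which is AGATAA with its variant AGATAG or TGATAA with its variant TGATAG, and the letters CACCC (the core of the KLF1 motif), on either strand.
Hba-x, chr11:32276450-32276599, plus strand: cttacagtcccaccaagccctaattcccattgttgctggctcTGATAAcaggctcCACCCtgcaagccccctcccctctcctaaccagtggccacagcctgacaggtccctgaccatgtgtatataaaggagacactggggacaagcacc
Hbb-y, chr7:103853208-103853357, minus strand: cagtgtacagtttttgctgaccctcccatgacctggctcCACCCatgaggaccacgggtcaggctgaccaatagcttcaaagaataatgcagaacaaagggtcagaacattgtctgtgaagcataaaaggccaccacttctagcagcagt
Alas2, chrX:150547267-150547416, plus strand: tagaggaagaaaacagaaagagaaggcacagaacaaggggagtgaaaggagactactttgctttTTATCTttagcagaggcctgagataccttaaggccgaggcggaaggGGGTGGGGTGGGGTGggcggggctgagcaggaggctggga
Klf1, chr8:84901832-84901981, plus strand: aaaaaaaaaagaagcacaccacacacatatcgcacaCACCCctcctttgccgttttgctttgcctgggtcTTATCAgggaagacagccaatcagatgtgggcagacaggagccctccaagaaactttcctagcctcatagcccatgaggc

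Hba-x, Alas2 and Klf1 each held 1 GATA match, with 1 CACCC match in Hba-x and Klf1 and 3 in Alas2, while Hbb-y held 1 CACCC match and 0 GATA matches. No match of either kind overlapped another. RefSeq windows were matched by symbol for 6 of the 8 genes, also Epb42 (0 matches of either kind) and Tfrc, whose 2 listed starts held 0 GATA matches and 0 and 1 CACCC matches. Of 32851 RefSeq windows of the same length, 16.0% held the GATA motif, 37.4% CACCC and 4.82% both. Such matches are letters in a window and do not show binding.

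Between the genotypes, 1 of the 8 genes passed the threshold of an adjusted p of 0.05 in the limma fit across 28187 probe sets: Alas2 fell in the mutant. None of the 8 rose in that fit. Over all 19937 genes, 4.30% fell and 2.64% rose, 6.94% in all, so the share of 1 in 8 rests on a single gene. An unadjusted p under 0.05 was reached by 2 of the 8, against 21.7% of all genes. The median difference, mutant minus wild type, was -0.30 log2 over the 8 genes and 0.00 over all genes. In 2 of the 8 genes (Hba-x and Alas2) every mutant value lay below every wild-type value, and in 1 (Tfrc) above, against 16.6% and 12.1% of all genes.

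**Figure D1:**
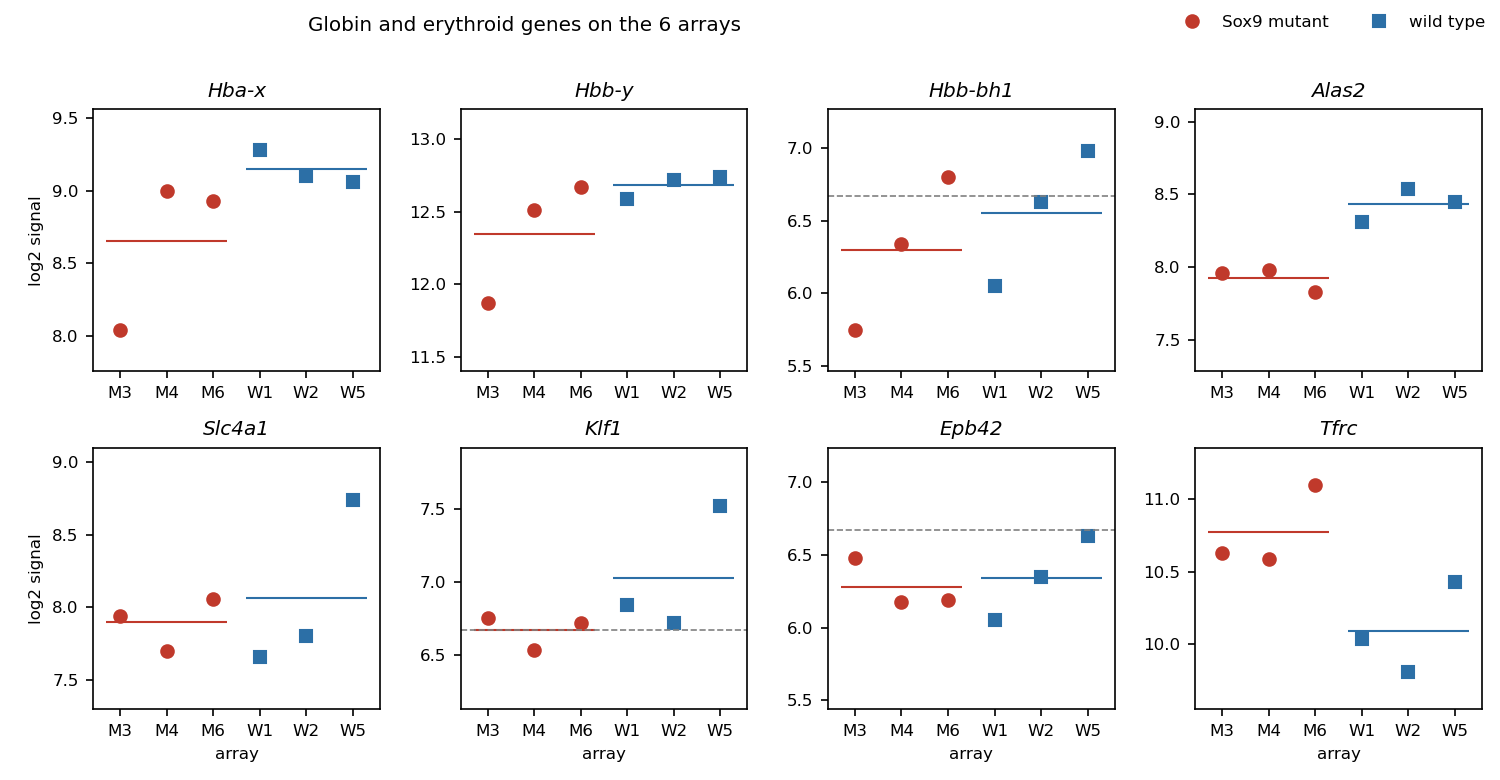
Log2 signal of the 8 genes on Sox9 mutant arrays 3, 4 and 6 (M3, M4, M6, circles) and wild-type arrays 1, 2 and 5 (W1, W2, W5, squares), with group means as lines, the background mark of 6.67 log2 dashed, and the same 1.8 log2 span in each panel. Alas2 is lower on each mutant array, the 3 embryonic globins are lowest on M3, and Slc4a1, Klf1 and Epb42 are highest on W5.

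The embryonic globins came first in order of development. Hba-x, the embryonic alpha-type (zeta) chain, measured 8.04, 9.00 and 8.93 log2 on mutants 3, 4 and 6, against 9.28, 9.10 and 9.06 on wild types 1, 2 and 5. The groups did not overlap, mutants 4 and 6 lay within 0.4 log2 of the wild-type values, and mutant 3 stood well below the other 5 arrays. The difference was -0.49 ± 0.23 log2 (SE; 95% interval -1.02 to 0.04, limma adjusted p = 0.302).

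Hbb-y, the embryonic epsilon-type beta chain, measured 11.87, 12.51 and 12.67 log2 on mutants 3, 4 and 6, against 12.59, 12.72 and 12.74 on wild types 1, 2 and 5. Here too mutant 3 was the lowest array, and mutant 6 overlapped the wild-type range. The difference was -0.33 ± 0.19 log2 (interval -0.77 to 0.10, limma adjusted p = 0.405). Hbb-bh1, the other embryonic beta-type chain of primitive red cells, measured 5.75, 6.34 and 6.80 log2 on mutants 3, 4 and 6, against 6.05, 6.63 and 6.98 on wild types 1, 2 and 5. Its mean lay below the background mark and 2 of its 6 values above it, so that little can be read from its size, but its lowest array was again mutant 3 (difference -0.26 ± 0.29, interval -0.90 to 0.39, limma adjusted p = 0.701).

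Mutant 3 thus set the size of the genotype difference in the embryonic globins. It lay below the mean of mutants 4 and 6 by 0.93 log2 (Hba-x), 0.72 (Hbb-y) and 0.82 (Hbb-bh1). A gap of at least 0.5 log2 in that direction, a size chosen after the values were seen, was found in 1.92% of all genes, and mutant 3 was the lowest of the 6 arrays in 20.9% of them. Without mutant 3 the genotype differences were -0.18 log2 for Hba-x, -0.09 for Hbb-y and 0.01 for Hbb-bh1 (limma adjusted p = 0.611, 0.815 and 0.992).

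The adult globins did not share the low values of mutant 3. The genes of the adult alpha and beta chains are near copies of each other, and the array reads them with 4 probe sets, each annotated to several of these genes, so none of them can be named alone. The brighter beta probe set measured 13.26, 12.94 and 12.91 log2 on mutants 3, 4 and 6, against 13.27, 13.35 and 13.00 on wild types 1, 2 and 5, with mutant 3 the highest mutant array. Its difference was -0.17 ± 0.14 log2 (limma adjusted p = 0.588). The 2 alpha probe sets ran parallel, at 13.02, 12.81 and 13.06 in the mutant against 13.20, 13.31 and 13.45 in wild type, and at 12.81, 12.66 and 12.80 against 12.83, 13.05 and 13.12.

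In both alpha probe sets every mutant value was below every wild-type value, with differences of -0.35 ± 0.12 and -0.25 ± 0.12 log2 (limma adjusted p = 0.150 and 0.319). The same held for 16.6% of all genes, and both probe sets are annotated to the same genes. In the second, the nearest values were 12.81 on mutant 3 and 12.83 on wild type 1. The dimmer beta probe set disagreed with the brighter, spreading from 6.77 to 8.05 log2 in the mutant and from 7.84 to 8.62 in wild type (difference -0.65 ± 0.31, adjusted p = 0.306). The 3 brighter probe sets lay near the top of the table, whose highest value is 14.49 log2, and whether their differences were compressed there was not tested.

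Taken per array as the mean of the 3 embryonic globins minus the mean of the 3 brighter adult globin probe sets, and centred on the 6 arrays, the balance was -0.71, 0.25 and 0.31 log2 on mutants 3, 4 and 6. On wild types 1, 2 and 5 it was -0.02, 0.01 and 0.17. The balance was lowest on mutant 3, and the group means differed by -0.10 log2. With Hbb-bh1 left out, since its mean lay below the mark, it was -0.74, 0.29 and 0.22 on mutants 3, 4 and 6, and 0.18, 0.01 and 0.04 on wild types 1, 2 and 5. Set against the other 4 of the 8 genes whose means exceeded the background mark (Alas2, Slc4a1, Klf1 and Tfrc), the embryonic globins gave -0.69, 0.16 and 0.12 on mutants 3, 4 and 6, and 0.18, 0.34 and -0.11 on wild types 1, 2 and 5. That difference of -0.27 log2 between the groups (SD 0.48 in the mutant and 0.23 in wild type) became 0.01 without mutant 3 and -0.52 with numbers 1 to 4 alone. It was -0.32 with Hbb-bh1 left out. Of the 4 genes it was set against, Tfrc alone had a positive difference between the groups, at 0.68 log2. Those of Alas2, Slc4a1 and Klf1 were -0.51, -0.17 and -0.36. The part of Tfrc in the -0.27 was not tested.

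**Figure D2:**
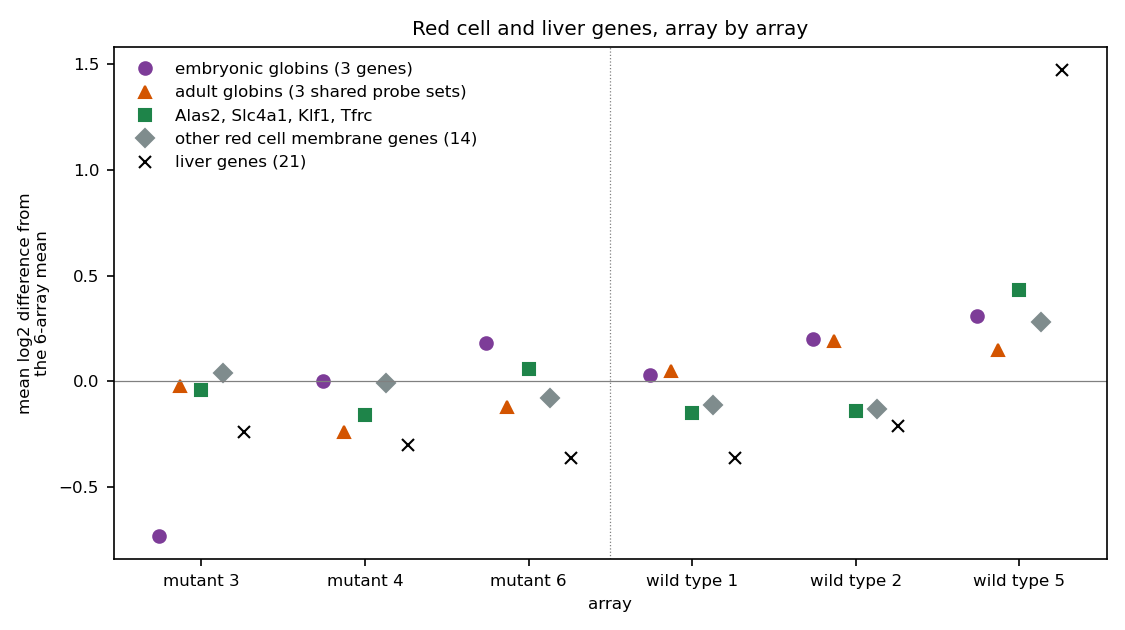
Mean difference of each gene set from its own mean over the 6 arrays (log2), with arrays along the x axis, mutants left and wild types right. The embryonic globins drop to -0.73 on mutant 3 alone, and the liver genes reach 1.47 on wild type 5. There Alas2, Slc4a1, Klf1 and Tfrc average 0.43 and the adult globins 0.15. That average mixes unlike genes: Slc4a1 and Klf1 are highest on wild type 5, Alas2 on wild type 2 and Tfrc on mutant 6.

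Other globin genes gave no call. Hbq1b, a theta-type globin of the alpha cluster, averaged 7.08 ± 0.31 log2 in the mutant and 6.89 ± 0.19 in wild type (SD, n = 3 each), and Hbb-bh2 of the beta cluster 6.43 ± 0.11 and 6.06 ± 0.12, with both means below the mark. None of the 3 measured genes of this list passed in the limma fit (1 at an unadjusted p under 0.05). Of 4 globins outside red cells none passed either (0 at an unadjusted p under 0.05), with Cygb, cytoglobin, at 9.22 ± 0.09 and 9.07 ± 0.10 log2 and Mb, myoglobin, at 7.35 ± 0.08 and 7.13 ± 0.17.

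Alas2 encodes the red cell form of aminolevulinate synthase, which makes the first intermediate of heme. It measured 7.96, 7.98 and 7.83 log2 on mutants 3, 4 and 6, against 8.31, 8.54 and 8.45 on wild types 1, 2 and 5. The groups did not overlap, and neither mutant 3 nor wild type 5 stood out from its group. Alas2 fell by 0.51 ± 0.12 log2 (SE; interval -0.77 to -0.25, limma adjusted p = 0.0334), a 1.43-fold difference. Within numbers 1 to 4 the difference was -0.46 and within numbers 5 and 6, with 1 array a group, -0.63. The call ended when any 1 array was left out (adjusted p from 0.0710 to 0.121, differences -0.58 to -0.46) and with a further quantile normalization (adjusted p = 0.0518).

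Alas1, the form of the same enzyme used by other tissues, steroid-making cells among them, fell by more. It measured 8.96, 9.81 and 9.26 log2 on mutants 3, 4 and 6, against 11.21, 11.24 and 11.27 on wild types 1, 2 and 5, a fall of 1.89 ± 0.19 log2 (3.72-fold, limma adjusted p = 0.000952). Mutant 4 was the highest mutant array, and it was so too for Cyp11a1, the first enzyme of steroid synthesis, at 5.96, 9.41 and 5.98 in the mutant against 11.80, 11.85 and 11.81 in wild type. That order was not particular to steroid genes, since mutant 4 was also the highest mutant array for Amh (8.91 log2) and Sox9 (7.78). A link between these genes and Alas1 was not tested. The call of Alas1 held in each of the 15 alternatives, with adjusted p up to 0.0185.

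Of 14 measured genes of the pathway and its mitochondrial carriers, 2 fell (Alas1 and Alas2), 0 rose and 12 did not pass, with a median of -0.06 log2. Beyond the rule for named genes and chosen after their values were seen, Alad, the second enzyme, measured 10.82 ± 0.16 in the mutant and 10.45 ± 0.04 log2 in wild type (limma adjusted p = 0.123). Urod, a later enzyme, measured 9.01 ± 0.03 and 9.42 ± 0.08 (adjusted p = 0.0608). Urod passed in 4 of the 15 alternatives, with adjusted p of 0.0298 among probe sets above the mark, 0.0389 with trend and robust, 0.0420 with numbers 5 and 6 as a batch and 0.0475 with array weights. Fech, which inserts the iron, measured 7.23 ± 0.03 and 7.27 ± 0.15 (adjusted p = 0.890), with an interval of -0.31 to 0.22 for its difference.

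**Figure D3:**
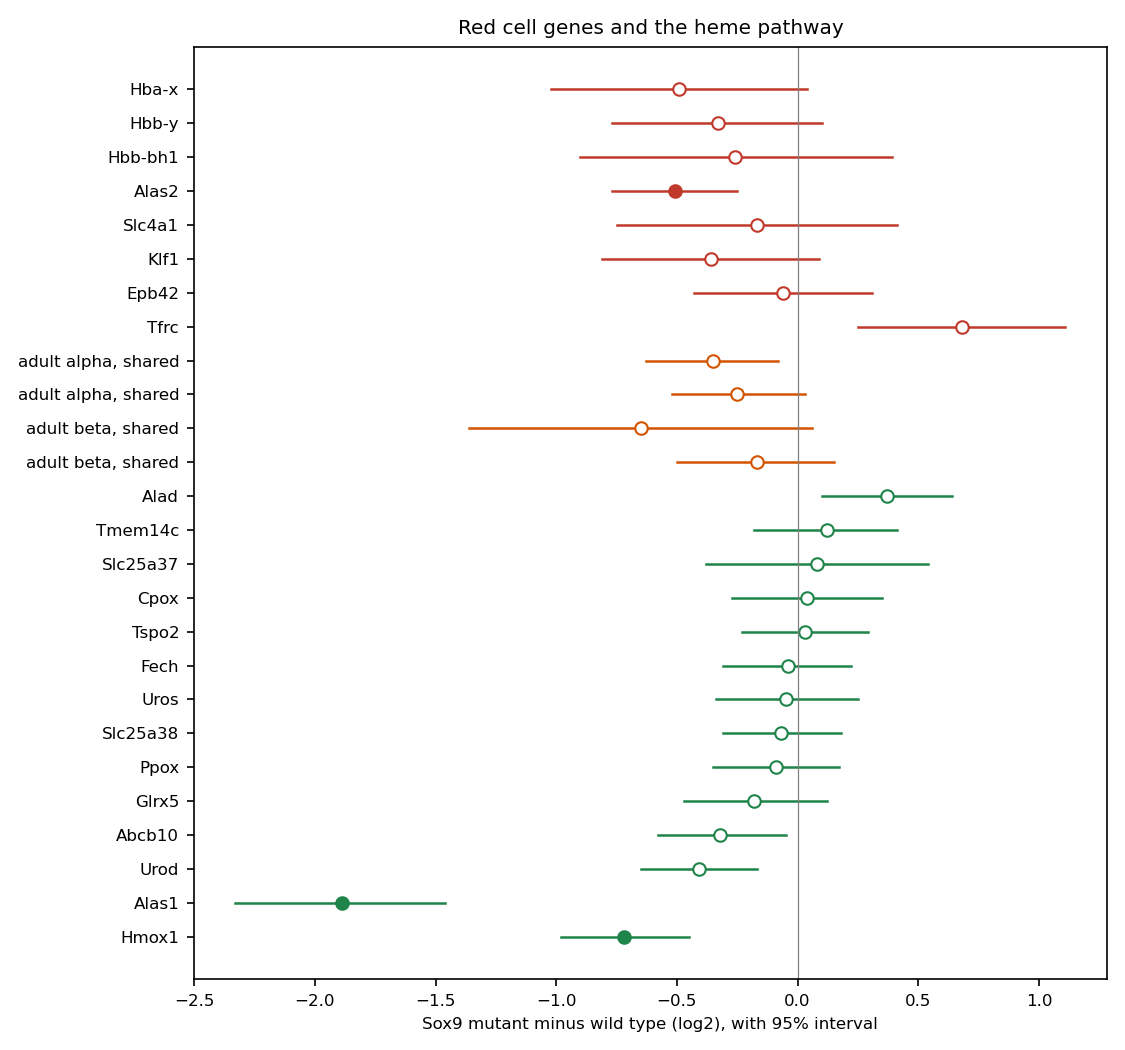
Sox9 mutant minus wild type (log2, x axis) with 95% intervals of the limma fit for the 8 genes (red), the probe sets shared by adult globin genes (orange), and heme synthesis genes with Hmox1 (green). Filled points passed an adjusted p of 0.05: Alas2 at -0.51, Alas1 at -1.89 and Hmox1 at -0.72.

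Tfrc encodes the transferrin receptor, which brings iron into maturing red cells and into dividing cells of most kinds, so that it is not specific to blood. It measured 10.63, 10.59 and 11.10 log2 on mutants 3, 4 and 6, against 10.04, 9.81 and 10.43 on wild types 1, 2 and 5. Each mutant array was above each wild-type array, and number 6 and number 5 were the highest of their groups. The difference was 0.68 ± 0.19 log2 (interval 0.25 to 1.11), with a limma adjusted p of 0.0782 that misses the threshold. It was 0.68 within numbers 1 to 4 and 0.67 within numbers 5 and 6. Of the 8 differences it was the only positive one.

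The wider iron list had 1 gene lower of 14, Hmox1, with 13 that did not pass and a median of -0.02 log2. That single call is near the 4.30% of all genes that fell. Hmox1, heme oxygenase, which breaks heme down, measured 8.70, 8.94 and 8.92 log2 on mutants 3, 4 and 6, against 9.49, 9.61 and 9.60 on wild types 1, 2 and 5. It fell by 0.72 ± 0.12 log2 (limma adjusted p = 0.00817), and the 2 groups were far apart relative to their spread. Chosen after its values were seen, Slc40a1, the iron exporter ferroportin, averaged 9.25 ± 0.11 log2 in the mutant and 9.72 ± 0.27 in wild type (adjusted p = 0.117).

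Slc4a1, Klf1 and Epb42 had their highest values on wild type 5. Slc4a1, the band 3 anion exchanger of the red cell membrane, measured 7.94, 7.70 and 8.06 log2 on mutants 3, 4 and 6, against 7.66, 7.80 and 8.74 on wild types 1, 2 and 5. Its value on wild type 5 was 1.02 log2 above the mean of the other wild types, while those lay inside or just below the mutant range. The difference between groups was -0.17 ± 0.26 (interval -0.75 to 0.41, limma adjusted p = 0.792) and turned to 0.17 without wild type 5.

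Klf1, the erythroid activator of adult globin and membrane genes, measured 6.75, 6.53 and 6.72 log2 on mutants 3, 4 and 6, against 6.84, 6.72 and 7.52 on wild types 1, 2 and 5. All but wild type 5 were within 0.2 log2 of the background mark. Its difference was -0.36 ± 0.20 (interval -0.81 to 0.09, limma adjusted p = 0.379), and -0.11 without wild type 5. Epb42, which ties band 3 to the membrane skeleton, stayed below the mark on each array, at 6.48, 6.18 and 6.19 log2 on mutants 3, 4 and 6, against 6.05, 6.35 and 6.63 on wild types 1, 2 and 5 (difference -0.06 ± 0.16, adjusted p = 0.898).

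Liver genes moved with these values on wild type 5, and the fetal liver is the organ in which definitive red cells form. Afp and Alb, the main secreted proteins of fetal hepatocytes, measured 11.26 and 11.42 log2 on wild type 5, against at most 6.33 and 6.60 on the other 5 arrays. Of 21 measured liver genes, 20 were highest on wild type 5, where 18.5% of all genes were, and 14 stood at least 1 log2 above the mean of wild types 1 and 2, against 0.201% of all genes. The summed signal of the liver list, on the linear scale, was 2054, 1955 and 1883 on mutants 3, 4 and 6, and 1987, 2098 and 10966 on wild types 1, 2 and 5. The part of liver tissue in the red cell values was not tested.

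The red cell genes split on that array. Of the 8 genes, 4 were at least 0.5 log2 above the mean of wild types 1 and 2 on wild type 5 (Slc4a1, Klf1, Hbb-bh1 and Tfrc), a size reached by 2.24% of all genes and chosen after the values were seen. Alas2 was 0.02 log2 from that mean, Hbb-y 0.09 and Hba-x -0.13, and the brighter adult beta probe set was -0.31, with the alpha probe sets at 0.20 and 0.18. Epb42 was 0.42 above it and the dimmer beta probe set 0.71. Tfrc, at 10.43 log2 on wild type 5, was high only against wild types 1 and 2, since each mutant array was above that value. The 4 genes raised over wild types 1 and 2 belonged to several classes, with 1 regulator among them. The 1 embryonic globin among them was Hbb-bh1, whose mean lay below the background mark, so that little can be read from its gap.

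Further red cell genes, named here after their values were seen, were also high on wild type 5. Among 16 measured genes of the red cell membrane, Slc4a1 and Epb42 among them, 12 were highest on wild type 5 and 8 were at least 0.5 log2 above the other wild types. Only 10 of the 16 had means above the background mark, and of the 8, Rhag, Rhd, Kel and Cldn13 did not. Rhag, the Rh-associated glycoprotein, was 1.29 log2 higher on wild type 5 but still below the background mark at 6.17. In the list of red cell cytosol and late genes Car2, carbonic anhydrase, was 1.55 higher and Pklr, the pyruvate kinase of red cells and liver, 1.21, the highest of 17 genes that ranged down to -0.36, with a median of 0.38 and 6 at 0.5 or more. Of those 6, Trim10, Hemgn and Rhd had means below the mark. Of the heme synthesis genes 0 of 14 reached 0.5 log2, with a median of 0.09, against 0.48 for the membrane list, 0.15 for 14 transcription factors and 0.00 for all genes.

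Lists of other blood cells and of vessels were read the same way. On wild type 5 the platelet list had a median of 0.20 log2 (7 genes, 2 of them at 0.5 or more), the leukocyte list 0.08 (13 genes, 2 of them) and the endothelial list -0.03 (10 genes, 0 of them). The 2 platelet genes, Pf4 and Ppbp, named after their values were seen, had means below the background mark. Of all genes 2.24% reached 0.5 log2. The summed linear signal of the endothelial list was 3662, 4082 and 4165 on mutants 3, 4 and 6, and 4651, 4068 and 4270 on wild types 1, 2 and 5. Mutant 3 was the lowest of these, as it was in the embryonic globins.

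**Figure D4:**
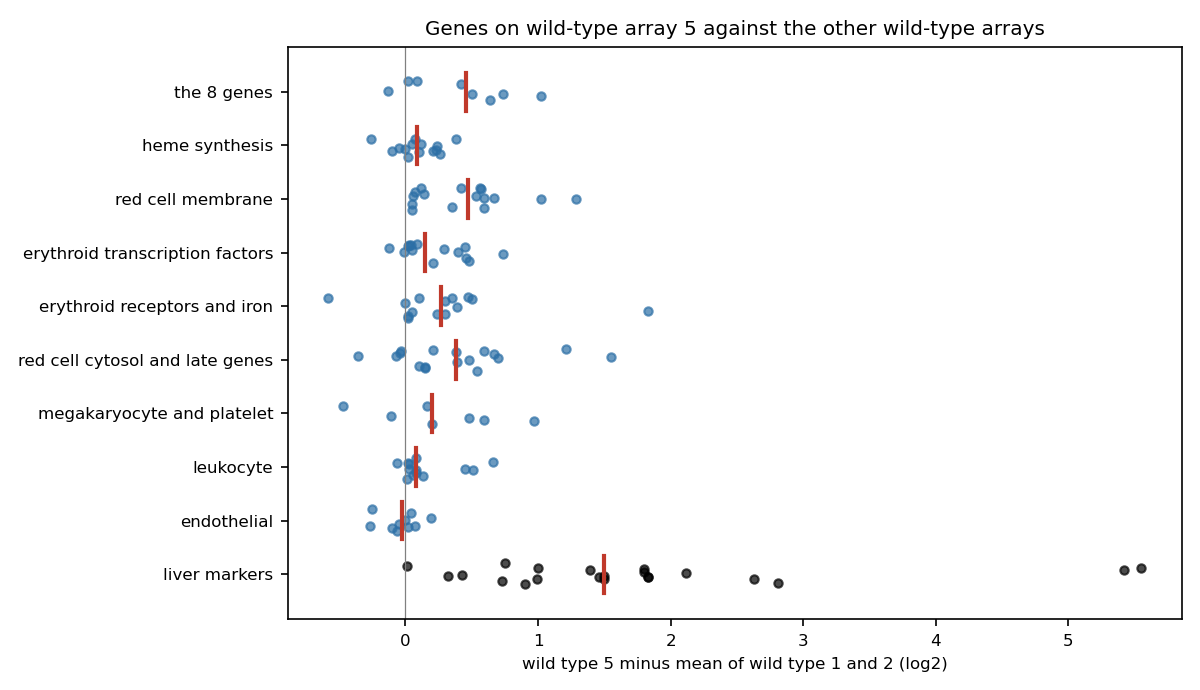
Wild type 5 minus the mean of wild types 1 and 2 (log2, x axis) for each measured gene (points) of the lists on the y axis, with medians as red bars. The liver list has a median of 1.50 and reaches 5.55 in Afp, the membrane list 0.48, and the endothelial list -0.03.

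Between the genotypes these lists gave no call in the limma fit. Of the membrane list 0 of 16 passed (2 at an unadjusted p under 0.05, median -0.02 log2), with Gypc, glycophorin C, at 8.53 ± 0.16 log2 in the mutant and 8.46 ± 0.40 in wild type (SD, n = 3 each). Among 14 erythroid transcription factors 0 passed (2 unadjusted, median -0.15), with Ldb1, a cofactor of the GATA1 complex, at 10.69 ± 0.11 and 10.67 ± 0.04 and Foxo3 at 9.70 ± 0.05 and 9.85 ± 0.05. The list of cytosol and late genes had 0 of 17 (3 unadjusted, median -0.03), with Prdx2, the red cell peroxiredoxin, at 11.72 ± 0.20 and 12.00 ± 0.11 and Bnip3l, which clears mitochondria, at 11.30 ± 0.05 and 11.28 ± 0.07. Chosen after their values were seen, Tspan33 of this list and Xk of the membrane list were higher without overlap. Their differences were 0.72 ± 0.19 and 0.42 ± 0.11 log2 (SE, limma adjusted p = 0.064 and 0.0507), and each passed in 6 of the 15 alternatives. Rhd, in both lists, and Bpgm, of this list, reached an unadjusted p under 0.05 the other way, at -0.49 and -0.31 log2.

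The lists of other cells had no call either. In the liver list 0 of 21 passed (2 unadjusted, median -0.49 log2), in the platelet list 0 of 7 (1 unadjusted, median 0.07) and in the leukocyte list 0 of 13 (1 unadjusted, median -0.01). The liver differences take in wild type 5, where most of these genes were highest. Within numbers 1 to 4 those of Afp and Alb were 0.24 and -0.19 log2. Itgb3 and Treml1, the highest means of the platelet list, averaged 8.56 ± 0.19 and 8.22 ± 0.13 log2 in the mutant, against 8.87 ± 0.08 and 8.04 ± 0.30 in wild type. Csf1r and C1qb, both of macrophages, averaged 7.38 ± 0.07 and 7.35 ± 0.50 in the mutant, against 7.37 ± 0.08 and 7.27 ± 0.08 in wild type. The endothelial list had 0 of 10 with 5 at an unadjusted p under 0.05, against 21.7% of all genes, and a median of -0.28 log2. In 5 of its 10 genes each mutant value was below each wild-type value, against 16.6% of all genes, and in 1, Kdr, above, against 12.1%. The difference was negative in 9 of the 10 genes, Kdr being the exception. Kdr, the main VEGF receptor, averaged 9.78 ± 0.08 in the mutant and 9.40 ± 0.14 in wild type, and Cdh5, VE-cadherin, 9.06 ± 0.17 and 9.34 ± 0.03 (SD, n = 3 each).

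Genes with the most similar pattern were sought over the 6 arrays among 2019 genes above the mark with a standard deviation of at least 0.3 log2. Nearest to the mean of the embryonic globins were Otud6b, Fastkd2, the predicted gene Gm6083, Lap3 and Spc25, with Pearson correlations of 0.968, 0.962, 0.961, 0.961 and 0.956 (Spearman 0.60 to 0.94), each lowest on mutant 3. Without mutant 3 and wild type 5, the arrays farthest from the median, the same correlations ran from -0.13 (Gm6083) to 0.95 (Otud6b), so that most rest on those arrays. Nearest to the mean of Alas2, Slc4a1, Klf1 and Tfrc were Actc1, Hpx, Ttr, Alb and Afp, 4 of them from the liver list, with Pearson correlations of 0.987 to 0.958 (Spearman 0.83 to 0.94), each highest on wild type 5. The liver genes were candidates only through wild type 5: their means over the other 5 arrays, 6.58 for Hpx, 6.59 for Ttr, 6.05 for Alb and 5.93 for Afp, lay below the mark, so their likeness follows from the array that admitted them. The standard deviation was taken over all 6 arrays. Over the arrays without mutant 3, each of the 5 genes near the embryonic globins fell short of 0.3 log2. Actc1 likewise fell short of it without wild type 5. These genes were thus candidates only through those arrays, and their likeness too follows from the array that admitted them. Without wild type 5 and mutant 6 the correlations with the mean of Alas2, Slc4a1, Klf1 and Tfrc ran from 0.50 to 0.82. With 6 arrays these values describe likeness only.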

How the data were processed

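The deposited log2 values of 6 arrays were used; the submitters' processing notes name RMA, with no software or settings. RMA compresses differences near background, and quantile normalization hides changes in total RNA. Of 34760 rows, 6573 with identifiers below the lowest annotated one were left out as controls. The 28187 probe sets tested comprised 21640 with a single gene, 1321 with several genes and 5226 with no gene. Entrez identifiers linked 21553 of the single-gene ones to RefSeq's table (GRCm38.p6), which changed 0 symbols. A gene was read at its probe set with the highest mean. The Sox9 mutant was compared with wild type by limma 3.58.1 in R 4.3.3 (2-sided, Benjamini-Hochberg over all probe sets, threshold 0.05), tested on simulated data; intervals are unadjusted. The number of arrays limits precision. No p is given for averages over the genes. Figures used matplotlib 3.10.9.

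The 8 genes, the lists and the tests were chosen with earlier results of these data known. Named are Sox9, the 8 genes, the called genes of each list (at most 4, by size of difference; with none, its 2 highest means), Afp and Alb, and the 5 genes of most similar pattern; other names were picked with their values in view and are marked so. Of the listed genes without a single-gene probe set, nothing is reported here except the adult globins.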

Additional observations from a re-analysis of the deposited data

How the results depend on the processing

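No paired analysis was possible because the groups share no replicate number. Among the 8 genes the count lower was 0 with a further quantile normalization, with numbers 1 to 4 alone, with wild type 5 and mutant 3 both left out (an alternative chosen after seeing the data) and over the fits that leave out 1 array (lowest and highest both 0). The count higher, 0 in the report, was 1 (Tfrc) with quantile normalization, among probe sets above the background mark, with array weights, with numbers 5 and 6 as a hypothetical batch and with numbers 1 to 4 alone, and 0 to 1 with 1 array left out. Over these settings the difference of Tfrc ran from 0.52 to 0.92 log2 (adjusted p from 0.00614 to 0.233) and that of Alas2 from -0.58 to -0.46 (0.0167 to 0.174). With 1 array left out, the difference of Hbb-bh1 ran from -0.51 to 0.01, that of Slc4a1 from -0.37 to 0.17 and that of Epb42 from -0.20 to 0.08. Reversed differences were those of Hbb-bh1 (0.01 without mutant 3, 0.23 without wild type 5 and mutant 3), Slc4a1 (0.17 without wild type 5, 0.09 with numbers 1 to 4, 0.15 without wild type 5 and mutant 3) and Epb42 (0.08 without wild type 5, 0.13 with numbers 1 to 4). The embryonic globins relative to other genes ran from -0.42 to 0.01 with 1 array left out, reversed without mutant 3, and were -0.52 with numbers 1 to 4, -0.12 without wild type 5 and mutant 3 and -0.10 against the brighter adult probe sets, against -0.27 in the report.

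Of all genes, 857 were lower and 527 higher. Lower were 513 with numbers 1 to 4, 239 without wild type 5 and mutant 3, and 330 to 746 with 1 array left out. Higher were 820 with the batch, 163 without wild type 5 and mutant 3, and 262 to 546 with 1 array left out; smaller counts come with fewer arrays. The heme list had 1 call instead of 2 with quantile normalization, numbers 1 to 4, without wild type 5 and mutant 3, and with any 1 array left out (lowest and highest both 1), and 3 (with Urod) above the mark, with trend and robust, array weights and the batch. The iron list had 2 instead of 1 with quantile normalization, above the mark, with array weights and with numbers 1 to 4, 3 with the batch, 0 without wild type 5 and mutant 3 (Hmox1 at adjusted p = 0.0899), and 1 to 2 with 1 array left out. The membrane list had 1 instead of 0 with quantile normalization, above the mark, with trend and robust, array weights, the batch and the mean of a gene's probe sets. The cytosol list had 1 instead of 0 above the mark, with trend and robust, array weights, the batch and numbers 1 to 4, and 0 to 1 with 1 array left out. The liver list had 1 with the batch, the endothelial list 1 above the mark and with array weights, and the gonad markers 5 instead of 8 without wild type 5 and mutant 3. Causes of these moves were not tested.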
